A study of Mus musculus with 4 samples.

Results

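A set of 9 genes that control entry into the cell cycle was followed across the cell types of the mouse heart, in WT animals and in animals with an Rbm20 mutation. They comprise the Cdk inhibitors Cdkn1a, Cdkn1b, Cdkn1c and Cdkn2c, the D cyclins Ccnd1, Ccnd2 and Ccnd3, and the p53 targets Mdm2 and Ccng1, and Cdkn1a is a p53 target as well. They were chosen by name and are 9 of 32285 mouse genes in the count tables, of which 26069 had at least 1 UMI. Each symbol named exactly 1 row. Single-nucleus RNA was read with the 10x 3′ v3 assay, which counts unique molecular identifiers (UMIs) near the polyadenylated ends of transcripts. All hearts came from C57BL/6 mice 6 months old, and nuclei of 3 hearts were pooled for each library. The 4 libraries were wild type (WT), heterozygous for the Rbm20 mutation (Rbm20_het), homozygous for it (Rbm20_homo), and homozygous with the mutation corrected by gene editing (Rbm20_homo_corrected, called the corrected library here). Rbm20 encodes a splicing factor of striated muscle whose mutations cause dilated cardiomyopathy. With 1 library per genotype, a genotype cannot be told apart from its library, and no test between genotypes was possible.

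D cyclins bind and activate Cdk4 and Cdk6, which phosphorylate the retinoblastoma protein and so release E2F factors that start DNA replication. The p21, p27 and p57 proteins (Cdkn1a, Cdkn1b and Cdkn1c) bind cyclin and Cdk complexes, whereas p18 (Cdkn2c) binds Cdk4 and Cdk6 alone. The p53 factor raises transcription of Cdkn1a, of Mdm2, the ubiquitin ligase that degrades p53, and of Ccng1, an atypical cyclin that recruits a phosphatase to Mdm2. Adult cardiomyocytes rarely divide, and Cdk inhibitors are part of what holds them out of the cycle.

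The p53 targets are shown by the stretch before their transcription start, because a shared regulator is what joins them. Promoter sequences from RefSeq (GRCm38.p6) existed for 6 of the 9 members, in 9 entries. The 250 bases before each start were searched for the 10-base half-site of the p53 consensus, a pair of which makes a full site. Both strands were covered at once, since the half-site reads alike on either. Of 32851 promoters, 7.13% held at least 1 copy of the half-site and 0.0639% held a pair no more than 13 bases apart. In capitals are the copies found, with flanks of up to 40 bases, at chr17:29090866-29090968 (plus strand) for Cdkn1a, chr10:117710895-117710984 (minus strand) for Mdm2 and chr11:40755422-40755511 (minus strand) for Ccng1.
Cdkn1a: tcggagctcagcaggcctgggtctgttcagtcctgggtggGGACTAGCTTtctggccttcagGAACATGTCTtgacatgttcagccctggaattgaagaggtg
Mdm2: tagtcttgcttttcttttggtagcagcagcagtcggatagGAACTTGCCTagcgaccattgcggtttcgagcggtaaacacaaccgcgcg
Ccng1: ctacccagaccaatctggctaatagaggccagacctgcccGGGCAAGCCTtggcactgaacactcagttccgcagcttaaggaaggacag

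The upstream start of Cdkn1a had 2 half-sites, 73 and 51 bases before the start with 12 bases between them, and was 1 of 21 promoters with such a pair. The bases that directly follow the half-site nearer the start differ from the half-site pattern only in the first base. The exact search left them unmarked. The bases that directly precede the Ccng1 half-site likewise differ from the pattern in only 1 base and were left unmarked. By the exact search Mdm2 and Ccng1 had 1 half-site each and no pair. The other entries, of Cdkn1b, Cdkn2c, Ccnd3 and the downstream start of Cdkn1a, had none in this window. A match describes the letters and not binding. In GRCm38 the genes lie at chr17:29090976-29100727 (Cdkn1a), chr6:134920401-134925513 (Cdkn1b), chr7:143458339-143461050 (Cdkn1c), chr4:109660876-109667189 (Cdkn2c), chr7:144929931-144939925 (Ccnd1), chr6:127125162-127152193 (Ccnd2), chr17:47505051-47599691 (Ccnd3), chr10:117688875-117710758 (Mdm2) and chr11:40748552-40755311 (Ccng1). Cdkn1c, Ccnd1, Ccnd2 and Ccnd3 overlap annotated genes on the opposite strand that also have rows in the count tables. Whether counting used strand is not given in the sources used here, so reads of such a pair cannot be told apart.

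The libraries held 9494 to 15153 barcodes, and 41139 nuclei remained after filtering, 8681 to 13144 per library with medians of 2364 to 3146 UMIs. Pairs of libraries shared 26 to 56 barcodes, at most 0.485% of the smaller. Of 27 clusters, 17 were named from marker genes, as X-like, and the 10 unnamed held 9.74% to 11.7% of nuclei per library. Each of 12 cardiomyocyte markers was seen in at least 66.0% of ventricular cardiomyocyte-like nuclei in every library. Cluster 0 held 2857 of 2907 such nuclei in WT, 2257 of 2380 in Rbm20_het and 2780 of 3054 in the corrected library, but cluster 3 held 2893 of 2954 in Rbm20_homo. Fibroblast-like nuclei were likewise mostly in cluster 1 in WT, Rbm20_het and the corrected library, and mostly in cluster 4 (2615 of 3056) in Rbm20_homo. Values within these classes therefore set different clusters side by side.

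Levels are counts per 1e6 UMIs (CPM), leaving out mitochondrial genes, after adding up all nuclei of 1 class and library, with exact Poisson 95% intervals. A ratio of 2 libraries has an exact binomial 95% interval. These intervals cover counting error only. A gene was called higher or lower when its ratio was at least 1.5-fold, the interval left out 1, and the libraries together had at least 50 UMIs of it. In 7 classes with at least 100 nuclei in every library this was done for all genes, and the share of them called is given as background. Shares of nuclei with a UMI are given with each nucleus thinned to 1000 UMIs. Shallower nuclei were left out, 0 to 6 per library in cardiomyocyte-like, 20 to 60 in fibroblast-like, 109 to 291 in endothelial-like, 22 to 74 in macrophage-like and 13 to 43 in pericyte-like nuclei. No class is known to lack any of these genes, so no background share from free RNA could be set.

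Across lineages, 6 members were lowest in cardiomyocyte-like nuclei and Ccng1 was highest there. By the mean of the 4 libraries over 8 classes, Cdkn1c spanned 51.2-fold from endothelial-like to cardiomyocyte-like nuclei, and Ccnd3 spanned 20.7-fold from macrophage-like to cardiomyocyte-like. The span was 9.19-fold for Cdkn1a (endothelial-like over pericyte-like), 6.87-fold for Ccnd1 (endocardial-like over cardiomyocyte-like) and 4.77-fold for Cdkn1b (fibroblast-like over cardiomyocyte-like). Ccnd2 spanned 3.98-fold with smooth muscle-like nuclei highest, Cdkn2c 2.57-fold with fibroblast-like highest, Ccng1 3.005-fold with pericyte-like lowest, and Mdm2 2.28-fold with macrophage-like highest. Most neighbours in these orders overlapped over the 4 libraries: for Cdkn1a, Cdkn2c and Mdm2 all 7 neighbouring pairs did, and for Cdkn1c 3 pairs stood apart. For Cdkn1b, Cdkn1c and Ccnd3 the cardiomyocyte-like range lay below that of each of the other 7 classes.

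**Figure D1:**
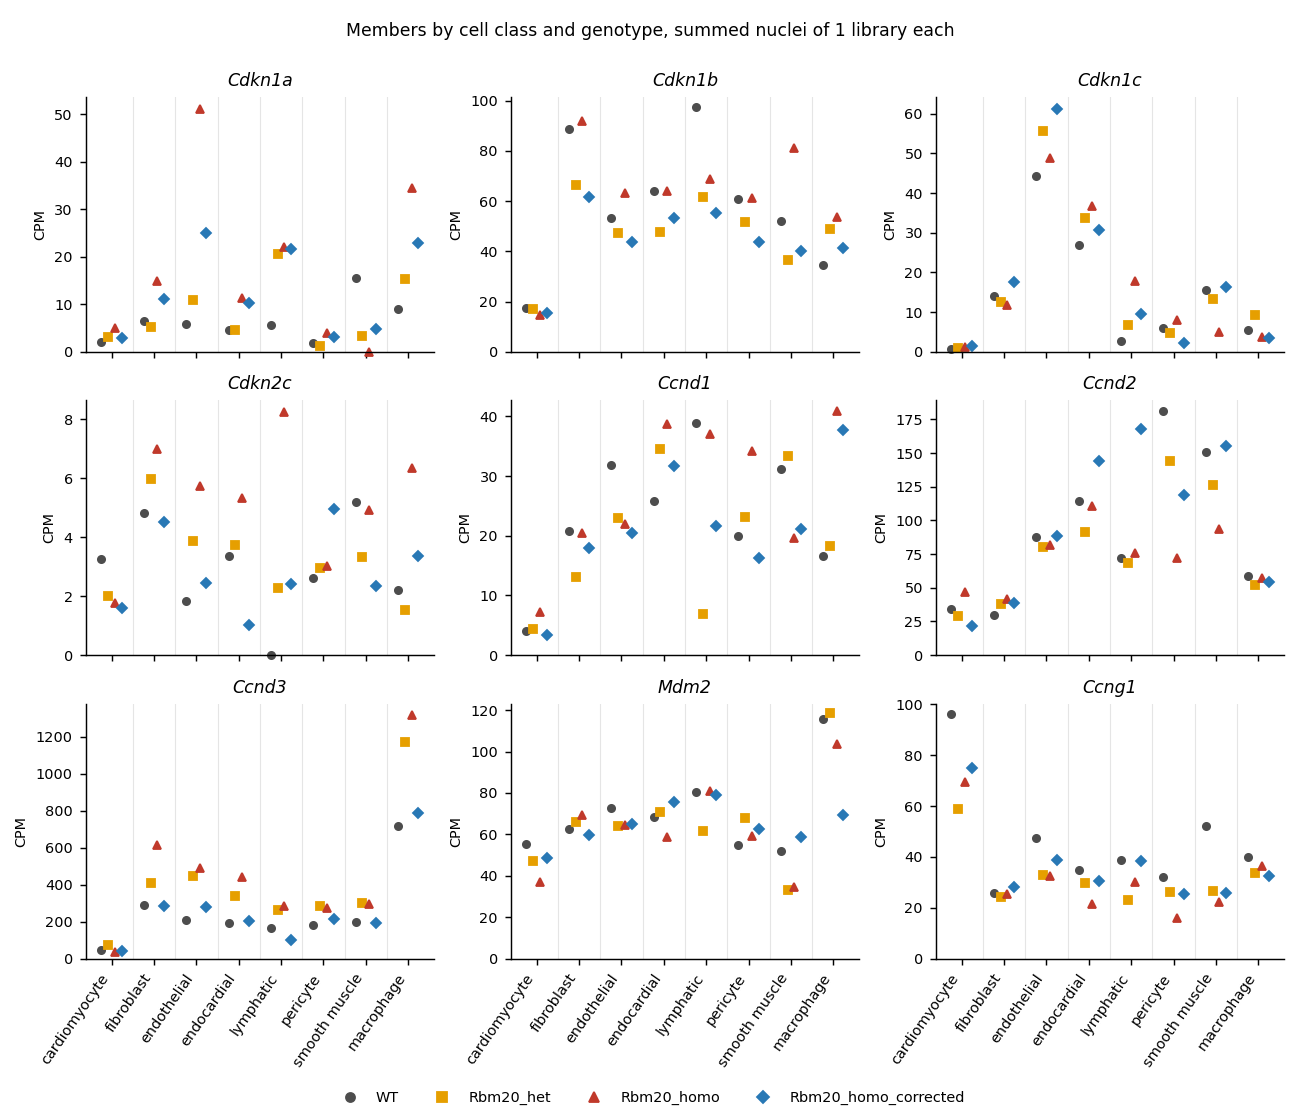
CPM (vertical axis, linear, its own scale in each panel) of the 9 members in 8 cell classes (horizontal axis); each point is the summed nuclei of 1 library, with shape and colour marking the genotype. Ccnd3 in macrophage-like nuclei reached 1316 CPM in Rbm20_homo against 37.7 CPM in its cardiomyocyte-like nuclei, and Ccng1 was highest in cardiomyocyte-like nuclei in each library.

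Counted over the set, few members were called in cardiomyocyte-like nuclei. For Rbm20_homo against WT, 2 of 8 tested members were called higher and 1 lower, beside 11.4% and 21.6% of all genes. Their median log2 ratio was -0.24, and that of all genes -0.18. Rbm20_het against WT gave 1 higher and 2 lower of 8 (5.06% and 6.69%), with the shares of all genes called higher and lower in brackets, here and in what follows. The corrected library gave 0 higher and 3 lower of 8 (14.8% and 9.44%) against Rbm20_homo and 0 higher and 2 lower of 8 (5.79% and 8.17%) against WT. The all-gene median of -0.18 went with Malat1, a nuclear RNA that took 24.1% of Rbm20_homo cardiomyocyte UMIs and 14.5%, 15.4% and 15.4% in WT, Rbm20_het and the corrected library. Without Malat1 in the total it was -0.01, and the direction of every called cardiomyocyte ratio stayed the same under that total, TMM factors and median-of-ratios factors. Under each of them Ccnd2 in Rbm20_homo against WT, not called by CPM, was called higher. With each nucleus thinned to 1000 UMIs, 3 of the 11 cardiomyocyte calls remained.

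In the other classes Rbm20_homo against WT gave 2 higher and 0 lower of 9 (13.1% and 8.29%) in fibroblast-like, 2 higher and 0 lower of 8 (8.76% and 8.17%) in endothelial-like and 2 higher and 0 lower of 6 (9.25% and 8.31%) in macrophage-like nuclei. It gave 1 higher and 0 lower of 7 (9.25% and 6.52%) in endocardial-like, 1 higher and 0 lower of 4 (6.98% and 4.67%) in lymphatic endothelial-like and 0 higher and 2 lower of 6 (7.19% and 8.79%) in pericyte-like nuclei. Ccnd3 was among the higher calls in 5 of these 6 classes, and Cdkn1a made up the rest in fibroblast-like and endothelial-like nuclei, as Ccnd1 did in macrophage-like nuclei. Both lower calls in pericyte-like nuclei were Ccnd2 and Ccng1. Rbm20_het against WT gave 0 higher and 1 lower of 9 (3.28% and 3.32%) in fibroblast-like, 1 higher and 0 lower of 7 (3.49% and 4.95%) in endothelial-like and 1 higher and 0 lower of 5 (4.89% and 6.69%) in macrophage-like nuclei, and 1 higher and 0 lower of 7 (5.91% and 4.56%) in endocardial-like, 1 higher and 0 lower of 4 (5.56% and 3.49%) in lymphatic endothelial-like and 1 higher and 0 lower of 6 (3.56% and 3.62%) in pericyte-like nuclei. All higher calls there were Ccnd3. The corrected library against Rbm20_homo gave 1 higher and 2 lower of 9 (7.76% and 11.5%) in fibroblast-like, 0 higher and 2 lower of 8 (7.02% and 8.78%) in endothelial-like, 0 higher and 1 lower of 7 (4.76% and 7.04%) in macrophage-like and 1 higher and 1 lower of 6 (6.84% and 6.23%) in pericyte-like nuclei, and 0 higher and 1 lower of 7 (6.14% and 7.14%) in endocardial-like and 1 higher and 1 lower of 4 (4.37% and 4.95%) in lymphatic endothelial-like nuclei. Against WT it gave 1 higher and 0 lower of 9 (5.62% and 4.98%) in fibroblast-like, 1 higher and 1 lower of 8 (4.07% and 5%) in endothelial-like, 1 higher and 1 lower of 6 (5.1% and 7.36%) in macrophage-like, 1 higher and 2 lower of 4 (5.86% and 4.46%) in lymphatic endothelial-like, 0 higher and 0 lower of 7 (5.08% and 4.52%) in endocardial-like and 0 higher and 1 lower of 6 (4.16% and 4.6%) in pericyte-like nuclei.

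**Figure D2:**
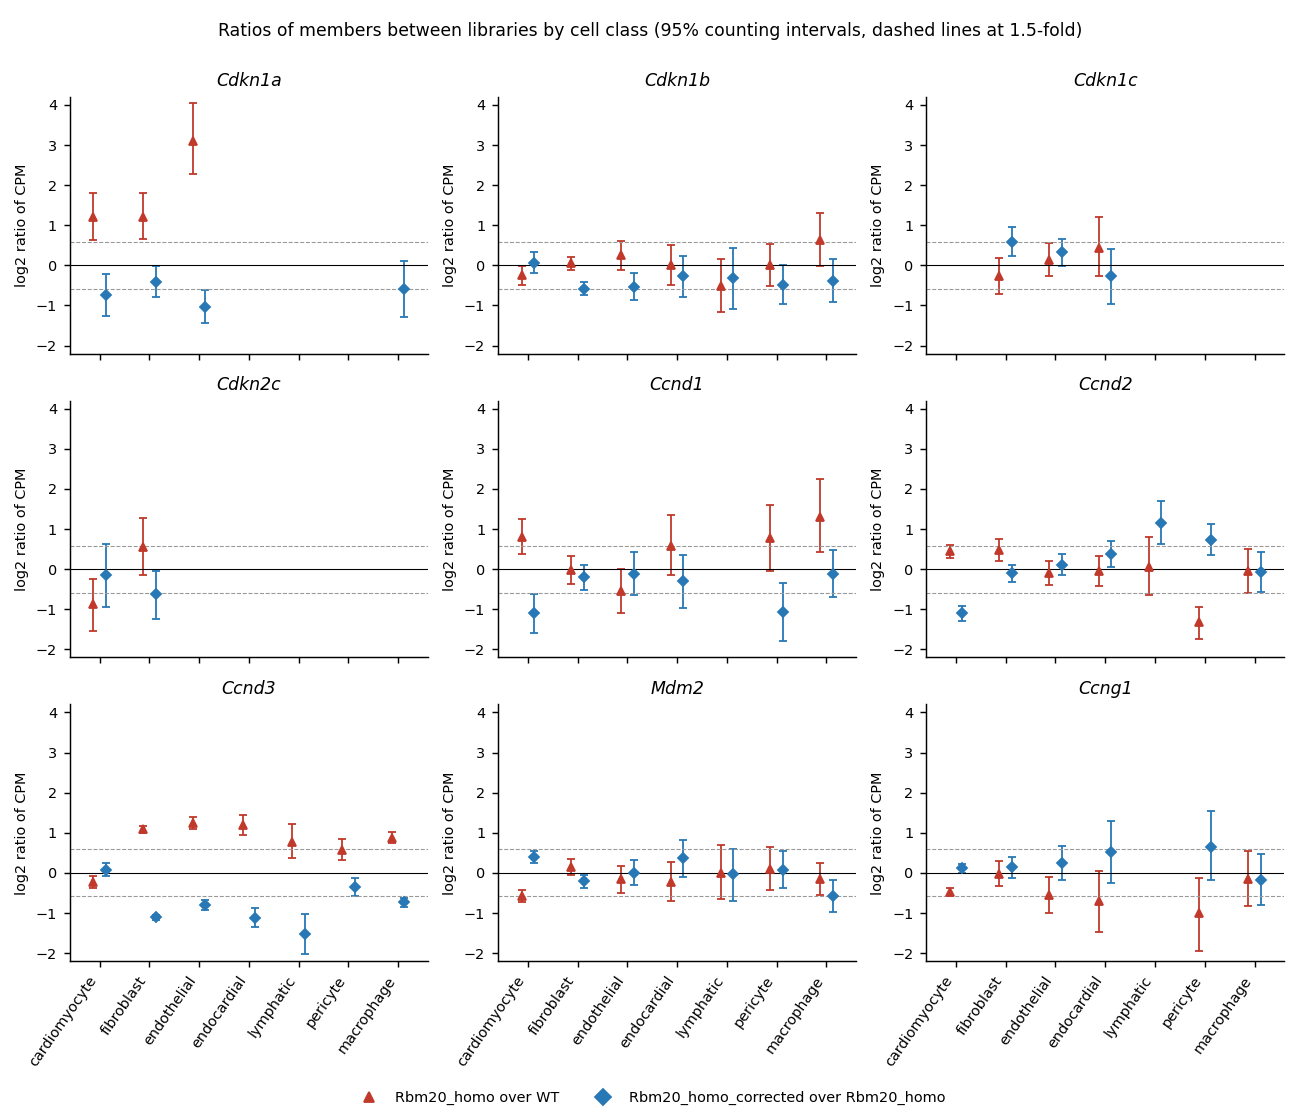
Log2 ratios of CPM (vertical axis) of the 9 members in 7 classes (horizontal axis) for Rbm20_homo over WT (triangles) and the corrected library over Rbm20_homo (diamonds), where the pair had at least 50 UMIs; bars are 95% counting intervals and dashed lines mark 1.5-fold. Both comparisons use the Rbm20_homo library. Ccnd3 was above 0 in the first and below 0 in the second outside cardiomyocyte-like nuclei, and Cdkn1a reached 3.11 in endothelial-like nuclei.

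Cdkn1a, the inhibitor p21 that p53 and many stresses induce, was called higher in Rbm20_homo than in WT in 3 classes. Of all genes, 11.4% were called higher in cardiomyocyte-like, 13.1% in fibroblast-like and 8.76% in endothelial-like nuclei. No other class reached the 50-UMI minimum. That minimum counts both libraries together, so a class could reach it through a high Rbm20_homo count alone. The number of classes is therefore not separate support for a rise. In endothelial-like nuclei Cdkn1a stood at 5.93 CPM (WT), 10.9 (Rbm20_het), 51.1 (Rbm20_homo) and 25.0 (corrected), from 13, 28, 116 and 92 UMIs. Rbm20_homo was highest, the corrected library lay between it and WT, and the Poisson intervals of WT (3.16 to 10.1) and Rbm20_homo (42.2 to 61.3) did not overlap. The ratio of Rbm20_homo to WT was 8.62 (95% interval 4.85 to 16.7), that of the corrected library to Rbm20_homo 0.490 (95% interval 0.368 to 0.650), and that of the corrected library to WT 4.22 (95% interval 2.35 to 8.23). At 1000 UMIs per nucleus, 0.806%, 0.925%, 5.08% and 2.43% of endothelial-like nuclei had a Cdkn1a UMI in the same order of libraries (1.01%, 1.91%, 7.90% and 3.72% before thinning). Most of these UMIs came from the larger endothelial-like cluster 2, where the levels were 6.04, 12.3, 54.0 and 26.1 CPM.

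Fibroblast-like nuclei read 6.42, 5.24, 14.9 and 11.2 CPM of Cdkn1a in the order WT, Rbm20_het, Rbm20_homo and corrected. Rbm20_homo and the corrected library were both called higher than WT, at 2.32 (95% interval 1.57 to 3.52) and 1.75 (95% interval 1.16 to 2.69). The call of the corrected library ended when only the cluster with most of each library's nuclei was kept, with a log2 ratio of 0.66 in place of 0.80. In macrophage-like nuclei Cdkn1a was again lowest in WT and highest in Rbm20_homo (8.89, 15.2, 34.5 and 22.9 CPM), but with 8 UMIs in WT and 38 in Rbm20_homo the ratio fell short of the 50-UMI minimum. Lymphatic endothelial-like nuclei had 2, 9, 16 and 9 UMIs and pericyte-like nuclei 2, 2, 4 and 7 UMIs, too few to compare.

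In cardiomyocyte-like nuclei Cdkn1a was rare, at 2.14 CPM (WT), 3.19 (Rbm20_het), 4.92 (Rbm20_homo) and 2.96 (corrected), from 34, 49, 97 and 46 UMIs. Rbm20_homo was highest and WT lowest, with Rbm20_het and the corrected library between them. Rbm20_homo over WT was 2.30 (95% interval 1.54 to 3.51) and the corrected library over Rbm20_homo 0.601 (95% interval 0.414 to 0.863), whereas the corrected library over WT, at 1.39 (95% interval 0.870 to 2.23), was not called. Rbm20_homo read above WT at each depth, on few Cdkn1a UMIs. WT and Rbm20_homo read 2.67 and 5.46 CPM in nuclei under 4000 UMIs, from only 8 and 10 Cdkn1a UMIs. They read 2.05 and 4.58 CPM from 4000 to 7999 UMIs (17 and 42), and 1.94 and 5.17 CPM from 8000 UMIs up (9 and 45). Thinned to 1000 UMIs, however, 5 nuclei of WT and 7 of Rbm20_homo kept a Cdkn1a UMI, and a difference was not detectable at this depth. The ratio of the corrected library to Rbm20_homo then turned, to a log2 value of 0.61 from 11 and 7 UMIs.

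Cdkn1b, the inhibitor p27 that holds resting cells out of the cycle, was called in 1 of its 28 ratios, from 7 classes and 4 comparisons. Cardiomyocyte-like nuclei read 17.5 CPM (WT), 17.0 (Rbm20_het), 14.7 (Rbm20_homo) and 15.4 (corrected), with overlapping intervals throughout. The ratio of Rbm20_homo to WT was 0.839 (95% interval 0.710 to 0.993), near the shift of all genes, whose median log2 ratio was -0.18. In fibroblast-like nuclei, where Cdkn1b was highest, the levels were 88.6, 66.5, 91.8 and 61.4 CPM in the same order of libraries. There WT and Rbm20_homo stood above Rbm20_het and the corrected library, and corrected over Rbm20_homo came to 0.670 (95% interval 0.6004 to 0.746), just inside 1.5-fold. The call was in lymphatic endothelial-like nuclei, with the corrected library at 0.566 (95% interval 0.319 to 0.986) of WT from 23 and 35 UMIs, and it ended without doublet removal (log2 ratio -0.61 in place of -0.82).

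Cdkn1c, the imprinted inhibitor p57, was mainly an endothelial transcript here, with 44.2, 55.6, 48.9 and 61.2 CPM in endothelial-like and 26.98, 33.6, 36.7 and 30.7 CPM in endocardial-like nuclei. WT was lowest in both classes, but no ratio to WT was called in either. In fibroblast-like nuclei it read 14.0, 12.4, 11.7 and 17.5 CPM, highest in the corrected library, which was called higher than Rbm20_homo at 1.502 (95% interval 1.17 to 1.94). Cluster 1, where fibroblast-like nuclei of the other genotypes mostly lay, read 16.5 CPM over all libraries, against 9.55 CPM in cluster 4, which held most of those of Rbm20_homo. The fibroblast-like call ended without Malat1 in the total, where the log2 ratio of Cdkn1c was 0.57 in place of 0.59. Mesothelial-like nuclei of Rbm20_homo, the only library with 50 of them, had 80.1 CPM (95% interval 51.8 to 118). Cardiomyocyte-like nuclei had 9, 14, 25 and 21 UMIs in all, 1.28% to 2.60% of the endothelial-like level. The median of 9 endothelial markers stood at 0.752% to 1.18% of its endothelial-like level in the same nuclei, and the part of free RNA was not tested.

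Cdkn2c, the Cdk4 and Cdk6 inhibitor p18, was the member with the fewest UMIs, 579 in all nuclei. In cardiomyocyte-like nuclei WT was highest, at 3.27 CPM (WT), 2.02 (Rbm20_het), 1.78 (Rbm20_homo) and 1.61 (corrected), from 52, 31, 35 and 25 UMIs. Rbm20_het, Rbm20_homo and the corrected library were each called lower than WT, with ratios of 0.618 (95% interval 0.383 to 0.983) for Rbm20_het, 0.544 (95% interval 0.344 to 0.850) for Rbm20_homo and 0.492 (95% interval 0.293 to 0.808) for the corrected library. Fibroblast-like nuclei gave another order, 4.81, 5.99, 7.01 and 4.53 CPM, in which the corrected library was lower than Rbm20_homo at 0.646 (95% interval 0.425 to 0.971). The intervals of Cdkn2c in Rbm20_het against WT and in fibroblast-like nuclei reached 1 with TMM factors, with log2 ratios of -0.64 and -0.58, and those calls then ended. The transcript was most frequent in cycling-like nuclei, with 68.4 CPM in WT and 44.5 CPM in Rbm20_homo, the libraries with at least 50 such nuclei.

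**Figure D3:**
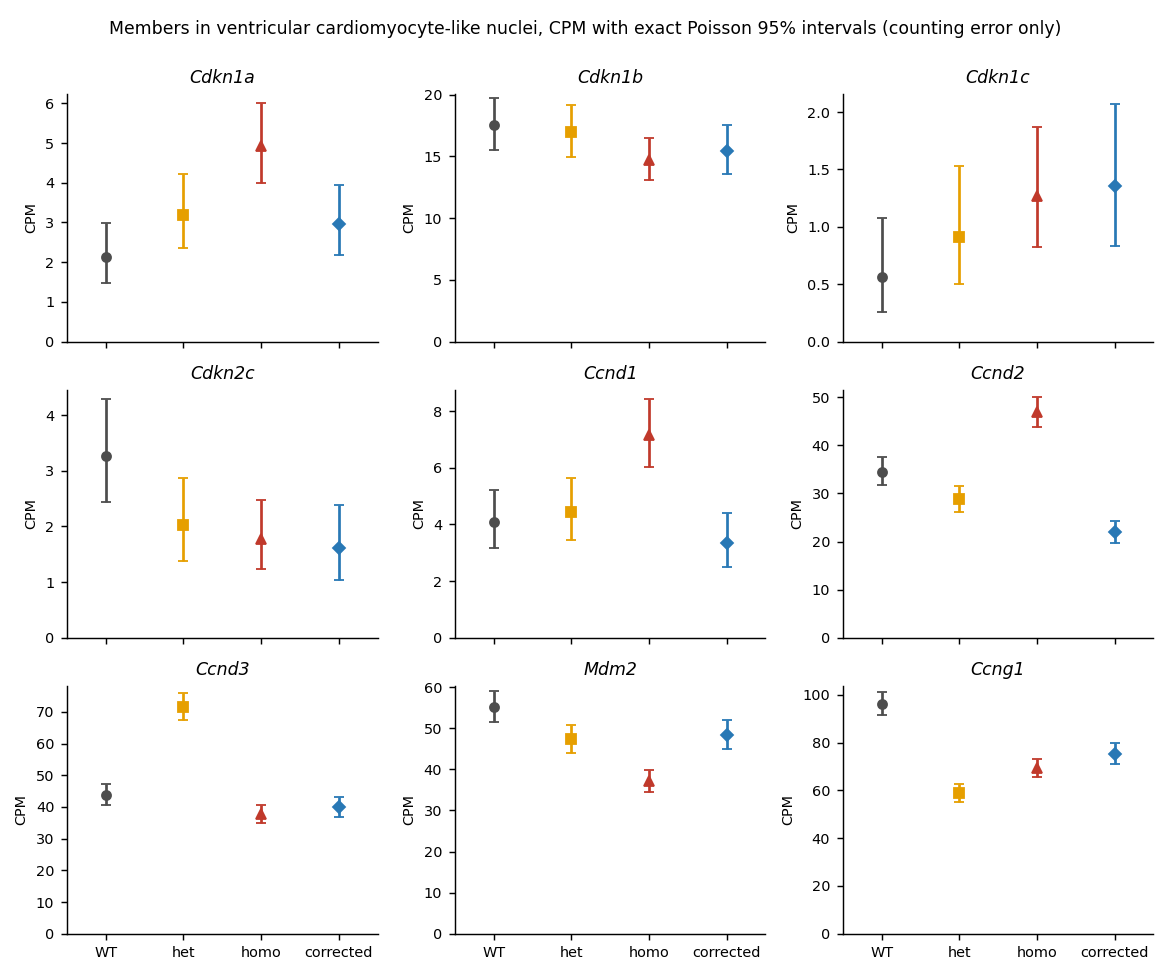
CPM (vertical axis, from 0) of each member in ventricular cardiomyocyte-like nuclei of the 4 libraries (horizontal axis), with bars for exact Poisson 95% intervals, which cover counting error only. Ccnd2 was highest in Rbm20_homo at 46.9 CPM and lowest in the corrected library at 21.9 CPM, and Ccnd3 stood apart in Rbm20_het at 71.7 CPM.

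Ccnd1, the D cyclin that growth factors induce most readily, was higher in cardiomyocyte-like nuclei of Rbm20_homo than in those of WT and the corrected library. The levels were 4.09 CPM (WT), 4.43 (Rbm20_het), 7.16 (Rbm20_homo) and 3.35 (corrected). Its Rbm20_homo interval (6.03 to 8.44 CPM) lay above those of WT (3.15 to 5.21) and of the corrected library (2.50 to 4.39). Rbm20_homo over WT was 1.75 (95% interval 1.30 to 2.39) and corrected over Rbm20_homo 0.468 (95% interval 0.333 to 0.647). At 1000 UMIs per nucleus the shares with a UMI were 0.551%, 0.588%, 0.644% and 0.459% (2.20%, 2.65%, 4.50% and 1.604% before thinning), and their exact intervals overlapped. Macrophage-like nuclei read 16.7, 18.3, 40.8 and 37.8 CPM, with Rbm20_homo and the corrected library high, at 2.45 (95% interval 1.34 to 4.73) and 2.27 (95% interval 1.26 to 4.31) of WT. Other calls were lower values: the corrected library against Rbm20_homo in pericyte-like nuclei (0.476, 0.290 to 0.785), the corrected library against WT in endothelial-like nuclei (0.639, 0.455 to 0.898) and Rbm20_het against WT in fibroblast-like nuclei (0.625, 0.464 to 0.839). Within the endothelial-like class, Ccnd1 read 25.7 CPM in cluster 2 and 6.91 CPM in cluster 12, whose leading genes Gja5, Sema3g and Sox17 are known from arterial endothelium.

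Ccnd2, a D cyclin that drives cardiomyocyte cycling when overexpressed, was highest in Rbm20_homo among cardiomyocyte-like nuclei but lowest in it among pericyte-like nuclei. Cardiomyocyte-like nuclei read 34.5 CPM (WT), 28.8 (Rbm20_het), 46.9 (Rbm20_homo) and 21.9 (corrected), and none of the 4 Poisson intervals overlapped. The corrected library was lowest, at 0.467 (95% interval 0.411 to 0.529) of Rbm20_homo and 0.634 (95% interval 0.552 to 0.727) of WT. Rbm20_homo over WT, at 1.36 (95% interval 1.22 to 1.51), stayed inside 1.5-fold by CPM. It was called higher with TMM factors, with median-of-ratios factors and without Malat1 in the total. The order of the libraries held at each depth, with Rbm20_homo and the corrected library at 51.9 and 28.3 CPM in nuclei under 4000 UMIs and at 45.3 and 20.2 CPM from 8000 UMIs up. Thinned shares of nuclei with a UMI were 2.93%, 2.69%, 4.67% and 2.17% (14.7%, 14.8%, 23.1% and 9.27% before thinning).

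In pericyte-like nuclei Ccnd2 was highest in WT and lowest in Rbm20_homo, at 181 CPM (WT), 144 (Rbm20_het), 72.2 (Rbm20_homo) and 119 (corrected), from 208, 242, 72 and 264 UMIs. Rbm20_homo was 0.399 (95% interval 0.301 to 0.524) of WT, and the corrected library was higher than Rbm20_homo at 1.65 (95% interval 1.27 to 2.17) but lower than WT at 0.658 (95% interval 0.546 to 0.793). Thinned shares followed the same order, 17.4%, 12.4%, 7.71% and 11.1% (27.7%, 24.1%, 12.6% and 17.9% before thinning). Lymphatic endothelial-like nuclei stood apart in the corrected library, where Ccnd2 reached 168 CPM against 72.3, 68.6 and 75.5 CPM in WT, Rbm20_het and Rbm20_homo. That was 2.22 (95% interval 1.54 to 3.22) of Rbm20_homo, from 70 and 55 UMIs. In endothelial-like nuclei the 4 levels lay between 80.4 and 88.1 CPM.

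Ccnd3, the D cyclin of lymphocytes and many differentiated tissues, was the member with the most calls, 17 of 28 ratios. Over these classes and comparisons, 3.28% to 21.6% of all genes were called in a given direction. Ccnd3 also had the most UMIs of the members, 38168 in all nuclei against 579 (Cdkn2c) to 8627 (Mdm2), which narrows its intervals. In each of the 6 classes other than cardiomyocyte-like nuclei its level in Rbm20_het and in Rbm20_homo lay above those in WT and in the corrected library. Fibroblast-like nuclei read 290.4 CPM (WT), 409 (Rbm20_het), 616 (Rbm20_homo) and 287 (corrected), from 1448, 2729, 5802 and 2532 UMIs. Endothelial-like nuclei read 207, 449, 491 and 281 CPM in that order, and macrophage-like nuclei 716, 1173, 1316 and 789.7 CPM. The same libraries were high in endocardial-like (193, 339.7, 441 and 203 CPM), lymphatic endothelial-like (167, 261, 287 and 101 CPM) and pericyte-like nuclei (183, 282, 274 and 214 CPM).

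Rbm20_homo was called higher than WT in 5 of 7 classes, with ratios of 2.37 (95% interval 2.12 to 2.64) in endothelial-like, 2.28 (95% interval 1.93 to 2.71) in endocardial-like, 2.12 (95% interval 2.002 to 2.25) in fibroblast-like, 1.84 (95% interval 1.67 to 2.02) in macrophage-like and 1.72 (95% interval 1.28 to 2.33) in lymphatic endothelial-like nuclei. Pericyte-like nuclei, at 1.498 (95% interval 1.25 to 1.80), fell just short of the threshold. Of all tested genes, 8.76%, 9.25%, 13.1%, 9.25%, 6.98% and 7.19% were called higher in those 6 classes. Rbm20_het was called higher than WT in 6 classes, the exception being fibroblast-like nuclei at 1.41 (95% interval 1.32 to 1.501). In the called classes the background was 5.06% in cardiomyocyte-like, 3.49% in endothelial-like, 5.91% in endocardial-like, 4.89% in macrophage-like, 5.56% in lymphatic endothelial-like and 3.56% in pericyte-like nuclei. The lymphatic endothelial-like call of Rbm20_het ended without doublet removal, at a log2 ratio of 0.51. All these comparisons share the WT library.

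The corrected library was called lower than Rbm20_homo in the same 5 classes, at 0.465 (95% interval 0.444 to 0.487) in fibroblast-like, 0.573 (95% interval 0.526 to 0.624) in endothelial-like, 0.461 (95% interval 0.391 to 0.541) in endocardial-like, 0.6001 (95% interval 0.555 to 0.649) in macrophage-like and 0.351 (95% interval 0.246 to 0.491) in lymphatic endothelial-like nuclei. The background of lower calls was 11.5%, 8.78%, 7.14%, 7.04% and 4.95% in that order. Against WT the corrected library came to 0.987 in fibroblast-like, 1.10 in macrophage-like and 1.36 in endothelial-like nuclei, and it was called lower in lymphatic endothelial-like nuclei (0.603, 0.397 to 0.910). In cardiomyocyte-like nuclei the pattern differed: levels were 43.9 CPM (WT), 71.7 (Rbm20_het), 37.7 (Rbm20_homo) and 39.97 (corrected), and Rbm20_het alone was high, at 1.63 (95% interval 1.48 to 1.80) of WT. Rbm20_homo over WT was 0.860 (95% interval 0.774 to 0.955) there, near the shift of all genes, whose median log2 ratio was -0.18. The cardiomyocyte-like Ccnd3 levels were 2.87% to 6.13% of those in the class with at least 100 nuclei where Ccnd3 was highest in each library. That class was macrophage-like in WT, Rbm20_het and Rbm20_homo, and B cell-like in the corrected library. Fibroblast-like Ccnd3 was lower than in those classes, at 287 to 616 CPM. In cardiomyocyte-like nuclei the median fibroblast marker stood at 2.41% to 4.90% of its fibroblast-like level, a base unlike that of the Ccnd3 percents. The median macrophage marker stood at 0.288% to 0.522% of its macrophage-like level. The part of free RNA in the Ccnd3 values was not tested.

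Shares of nuclei with a Ccnd3 UMI at 1000 UMIs per nucleus were also highest in Rbm20_homo and next in Rbm20_het in the 3 of the 7 compared classes with the highest Ccnd3 levels. For WT, Rbm20_het, Rbm20_homo and the corrected library they were 22.3%, 30.5%, 41.9% and 22.8% (41.8%, 56.1%, 72.3% and 41.0% before thinning) in fibroblast-like nuclei. They were 17.3%, 32.6%, 34.6% and 21.3% (24.5%, 44.2%, 48.2% and 28.5% before thinning) in endothelial-like and 42.2%, 63.4%, 67.8% and 48.5% (57.0%, 72.8%, 84.2% and 60.3% before thinning) in macrophage-like nuclei. In the same fibroblast-like cluster 1 the levels were 302, 419.6, 555 and 289.8 CPM, so Rbm20_homo was also highest where all libraries had at least 385 nuclei. In endothelial-like cluster 2 they were 194, 417, 448 and 255 CPM, and in cluster 12 335, 692, 765 and 541 CPM. The lowest shares were those of cardiomyocyte-like nuclei, 3.96%, 7.31%, 3.93% and 4.23% (17.1%, 30.4%, 19.3% and 15.4% before thinning), whose median depth before thinning was 4514 to 5904 UMIs against 1474 to 1657 in endothelial-like nuclei.

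**Figure D4:**
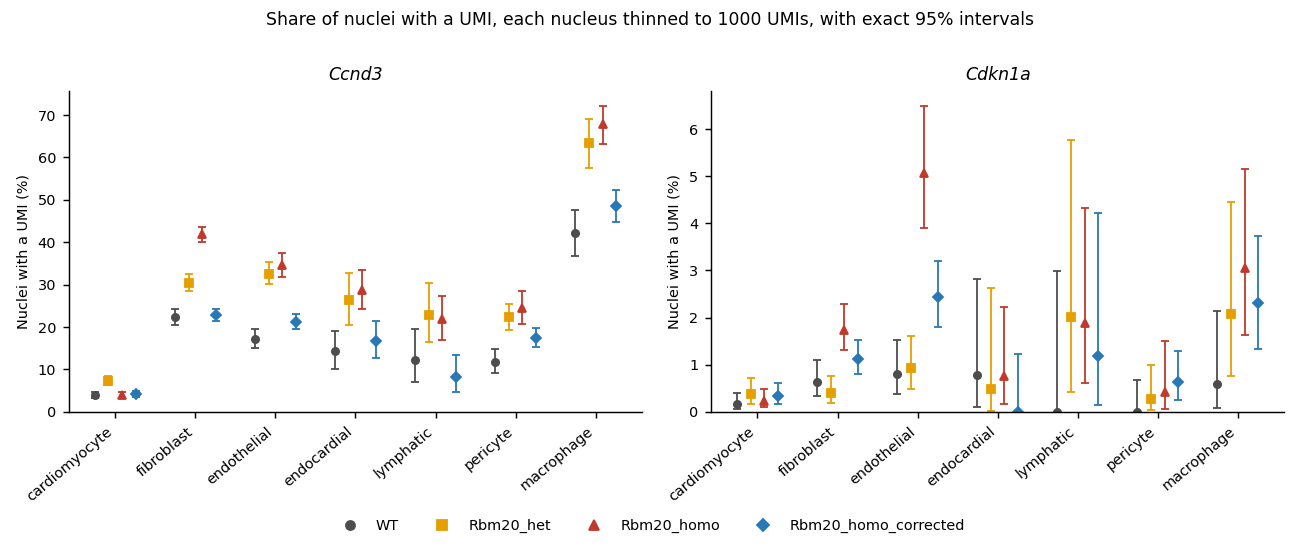
Percent of nuclei with a UMI of Ccnd3 or Cdkn1a (vertical axis, from 0) in 7 classes (horizontal axis), each nucleus thinned to 1000 UMIs and shallower nuclei left out; bars are exact binomial 95% intervals. Ccnd3 shares in endothelial-like nuclei were 32.6% and 34.6% in Rbm20_het and Rbm20_homo against 17.3% in WT, and Cdkn1a stood out in Rbm20_homo endothelial-like nuclei at 5.08%.

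The make-up of D cyclin UMIs, read only between classes and libraries, differed by lineage. Ccnd3 gave 89.6% to 94.4% of D cyclin UMIs in macrophage-like nuclei, 83.5% to 90.8% in fibroblast-like and 94.1% to 95.1% in B cell-like nuclei over the libraries with at least 50 nuclei. Ccnd2 gave a larger share in pericyte-like (19.0% to 47.2%), smooth muscle-like (22.9% to 41.8%), cardiomyocyte-like (27.4% to 51.1%), lymphatic endothelial-like (18.9% to 57.9%) and endocardial-like nuclei (18.8% to 38.0%). Ccnd1 stayed at or under 14.0% everywhere. In cardiomyocyte-like nuclei the Ccnd2 share was 41.8% (WT), 27.4% (Rbm20_het), 51.1% (Rbm20_homo) and 33.6% (corrected), highest in Rbm20_homo. In pericyte-like nuclei it was lowest in Rbm20_homo, at 19.0% against 47.2% in WT. The part of free RNA in these shares was not tested.

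Mdm2, the ligase that p53 induces against itself, was lowest in Rbm20_homo among cardiomyocyte-like nuclei. It read 55.2 CPM (WT), 47.3 (Rbm20_het), 37.1 (Rbm20_homo) and 48.4 (corrected), and the Rbm20_homo interval (34.4 to 39.8) lay below those of WT (51.6 to 59.0) and the other libraries. The ratio to WT, 0.671 (95% interval 0.608 to 0.742), was short of 1.5-fold, as were Rbm20_het (0.856, 0.775 to 0.946) and the corrected library (0.877, 0.795 to 0.968). In fibroblast-like nuclei Mdm2 ranged from 59.8 to 69.1 CPM and in endothelial-like nuclei from 64.1 to 72.5 CPM. It was not called there in any of the 4 comparisons, while Cdkn1a was higher in Rbm20_homo in the same nuclei. Macrophage-like nuclei read 116, 119, 103 and 69.5 CPM, lowest in the corrected library at 0.601 (95% interval 0.453 to 0.797) of WT, its only call.

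Ccng1 had its highest level in cardiomyocyte-like nuclei, and there WT stood above every other library. Cardiomyocyte-like nuclei read 96.3 CPM (WT), 58.7 (Rbm20_het), 69.4 (Rbm20_homo) and 75.2 (corrected), with no overlap between the WT interval (91.5 to 101) and the rest. Rbm20_het was called lower, at 0.610 (95% interval 0.561 to 0.663) of WT, whereas Rbm20_homo (0.721, 0.669 to 0.776) and the corrected library (0.781, 0.723 to 0.843) stayed inside 1.5-fold. Thinned shares were 9.54%, 6.47%, 6.57% and 7.61% (36.5%, 29.1%, 32.5% and 28.6% before thinning). Pericyte-like nuclei of Rbm20_homo had 16.1 CPM against 32.2 in WT, a ratio of 0.498 (95% interval 0.259 to 0.918) from 16 and 37 UMIs. Outside cardiomyocytes the level ranged from 16.1 to 52.0 CPM over 7 classes and 4 libraries. All 12 cardiomyocyte markers were also read in endothelial-like sums, where together they stood at 12.0% to 14.6% of their cardiomyocyte-like level and Ccng1 read 47.4, 33.0, 32.6 and 38.6 CPM. The part of free RNA in those values was not tested.

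Among the partners of these genes in cardiomyocyte-like nuclei, the kinase Cdk6 differed most among the 10 tested in its list. In the order WT, Rbm20_het, Rbm20_homo and corrected it read 103, 27.8, 11.3 and 26.4 CPM, with Rbm20_homo at 0.110 (95% interval 0.0951 to 0.126) of WT. WT was far above the rest, and the corrected library, higher than Rbm20_homo at 2.33 (95% interval 1.98 to 2.76), lay near Rbm20_het. Cdk2, the partner of cyclin E, was also highest in WT (8.11, 5.28, 2.44 and 3.28 CPM), as was the pocket protein Rbl2 (61.3, 50.7, 38.2 and 41.8 CPM). Of the list of kinases, cyclin E, pocket proteins and E2F genes, Rbm20_homo against WT had 0 higher and 3 lower of 10 tested, a median log2 ratio of -0.33, beside 11.4% higher, 21.6% lower and a median of -0.18 over all genes. Genes that turn over or transcribe p27 and D cyclins, such as Skp2 and Foxo3, had 0 higher and 0 lower of 6 tested. The replication list had 0 higher and 4 lower of 7 tested, the helicase subunits Mcm4, Mcm6 and Mcm7 and the clamp Pcna, at 4.21 CPM in WT and 1.88 CPM in Rbm20_homo for Mcm6.

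Genes of the p53 pathway were called in both directions in cardiomyocyte-like nuclei. Of p53 and its regulators, Rbm20_homo against WT had 1 higher and 1 lower of 8 tested, beside 11.4% and 21.6% of all genes there: the kinase Hipk2 was higher (1.51, 1.44 to 1.59) and the damage kinase Atr lower (0.573, 0.524 to 0.625). Other p53 targets had 5 higher and 3 lower of 23 tested, with a median log2 ratio of -0.13 beside -0.18 over all genes. Ddit4, an mTOR inhibitor that glucocorticoids and hypoxia also induce, read 3.02, 5.15, 14.1 and 8.75 CPM, and the antiproliferative gene Btg2 read 11.7, 15.1, 35.2 and 15.4 CPM, both highest in Rbm20_homo. The damage response gene Gadd45a (3.58, 2.02, 0.863 and 2.83 CPM) and the death receptor Fas (19.0, 13.2, 6.09 and 12.6 CPM) were lowest there. In fibroblast-like nuclei the same list had 4 higher and 0 lower of 21 tested (all genes 13.1% and 8.29%), Ddit4 (6.62, 14.1, 43.9 and 7.24 CPM) and Phlda3 (6.22, 6.14, 15.3 and 7.70 CPM) among them. Endothelial-like nuclei had 2 higher and 4 lower of 15 tested (all genes 8.76% and 8.17%), with Fas at 112, 163, 273 and 108 CPM, highest in Rbm20_homo where cardiomyocyte-like nuclei were lowest.

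Lists kept beside these as signs of handling, time of day and steroid exposure also differed between libraries. Of immediate early genes, Rbm20_homo against WT had 2 higher and 2 lower of 4 tested in cardiomyocyte-like nuclei, where Atf3 read 0.691, 0.391, 6.14 and 0.901 CPM and Jun 31.0, 26.5, 63.0 and 20.3 CPM. Clock genes had 0 higher and 8 lower of 14 tested, with Dbp at 137, 73.0, 21.5 and 33.6 CPM. Glucocorticoid-induced genes had 3 higher and 0 lower of 6 tested. Of all genes in that comparison 11.4% were called higher and 21.6% lower. The corrected library differed in clock genes too, with 2 higher and 9 lower of 14 tested against WT (all genes 5.79% and 8.17%). Against Rbm20_homo it had 4 higher and 5 lower of 14 clock genes (all genes 14.8% and 9.44%). Fkbp5, a marker of glucocorticoid exposure, read 14.3, 75.2, 236 and 28.1 CPM in cardiomyocyte-like, 49.3, 157, 530.2 and 101 CPM in endothelial-like and 300, 607, 941 and 516 CPM in fibroblast-like nuclei, lowest in WT and highest in Rbm20_homo in each. Cdkn1a was lowest in WT and highest in Rbm20_homo in cardiomyocyte-like and endothelial-like nuclei too, whereas in fibroblast-like nuclei it was lowest in Rbm20_het (5.24 CPM against 6.42 in WT). The part of these differences in the members' values was not tested. A list of atrial cardiomyocyte markers (Myl7, Myl4, Sln, Bmp10 and Nppa) summed to 1150 CPM in endothelial-like sums of Rbm20_homo. It came to 11.4, 34.6 and 41.3 CPM in those of WT, Rbm20_het and the corrected library, with Sln and Bmp10 at 0 in each. Myl7 was also at 0 in Rbm20_het and the corrected library. How much each listed gene gave was not separated, so the values do not show atrial material. In the same sums all 9 macrophage markers were read and together ranged from 235 to 278 CPM, and their part was not tested either. All 10 fibroblast markers were also read there and summed to 698, 1009, 1360 and 1133 CPM, or 6.35% to 14.1% of their fibroblast-like level. They were lowest in WT and highest in Rbm20_homo, as endothelial-like Cdkn1a was, and their part in the Cdkn1a values was not tested.

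**Figure D5:**
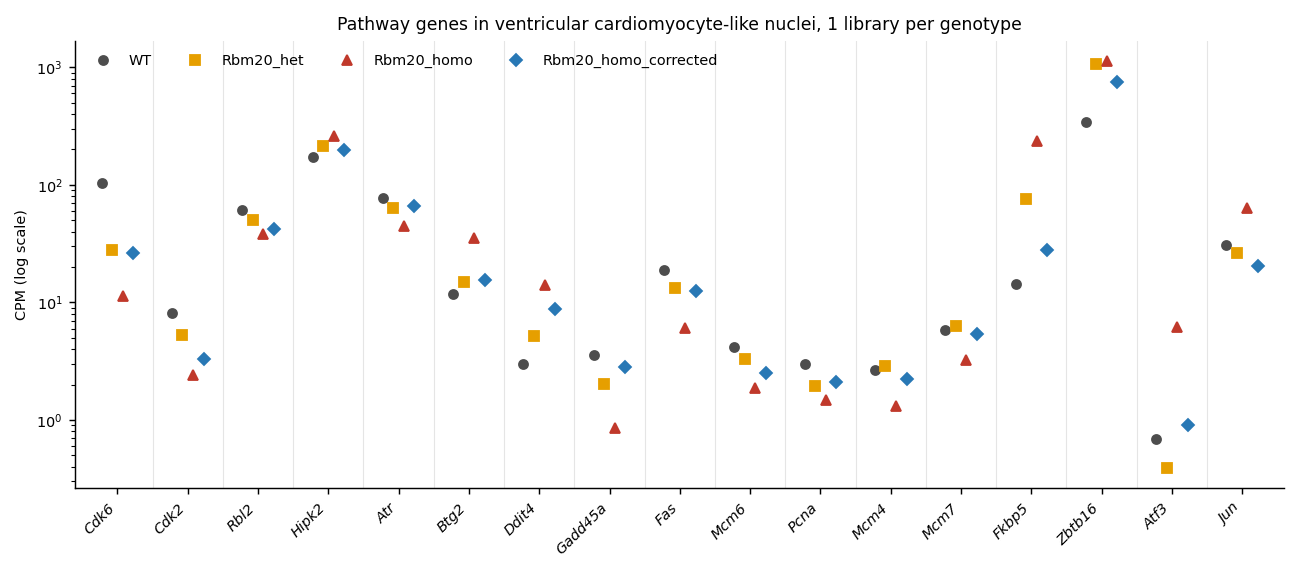
CPM (vertical axis, log scale) of partner, p53 pathway, replication, glucocorticoid-induced and immediate early genes (horizontal axis) in ventricular cardiomyocyte-like nuclei; each point is 1 library. Cdk6 went from 103 CPM in WT to 11.3 CPM in Rbm20_homo, and Fkbp5 was 14.3 and 236 CPM.

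The count tables have 2 added features, ABE_C and ABE_N, listed by name without a definition. They had 6242 UMIs in the corrected library and 0 in the other libraries. Of the cardiomyocyte-like nuclei of the corrected library, 1206 had such a UMI and 1848 had none, with median depths of 5304 and 4012 UMIs. For 8 members the ratio between these nuclei had an interval that included 1, such as Ccnd2 at 0.911 (0.730 to 1.13) and Cdkn1a at 0.742 (0.386 to 1.39). Mdm2 was slightly higher in nuclei with the feature, 52.8 against 44.6 CPM, a ratio of 1.18 (1.02 to 1.37). With all nuclei thinned to 1000 UMIs that ratio was 1.06 (0.743 to 1.51).

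For 8 of the members the genes with the most similar pattern were named by Pearson's r of log2(CPM + 1) over 32 sums, 8 classes by 4 libraries, which share libraries and depth. This is a description with no test. The nearest were Ocel1 (0.79), Pef1 (0.79) and Setdb2 (0.79) for Cdkn1a, Cplane1 (0.92), Anapc4 (0.91) and S100a11 (0.91) for Cdkn1b and Mecom (0.91), Vegfc (0.90) and Lims2 (0.90) for Cdkn1c. For the D cyclins they were Nfya (0.85), Cstf3 (0.85) and Rps18 (0.84) for Ccnd1, Mcam (0.86), Dbndd2 (0.84) and Tinagl1 (0.84) for Ccnd2 and Fbxl5 (0.94), Tmem87b (0.93) and Map3k8 (0.91) for Ccnd3. Mdm2 was nearest to Sirt7 (0.87), Gapvd1 (0.85) and Gnaq (0.84), and Ccng1 to Idh2 (0.91), Lmod3 (0.89) and Tnnt2 (0.88), the last a cardiac sarcomere gene. Mecom and Vegfc, next to Cdkn1c, are endothelial genes, and Mcam, next to Ccnd2, marks pericytes and smooth muscle. Among the members themselves r ranged from -0.74 (Cdkn1b with Ccng1) to 0.69 (Cdkn1b with Ccnd1), and the p53 targets had 0.53 (Cdkn1a with Mdm2), -0.04 (Cdkn1a with Ccng1) and -0.09 (Mdm2 with Ccng1).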

How the data were processed

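Gene by barcode UMI counts were deposited by the authors as 1 matrix per library. Cell Ranger 6.1.1, Seurat 4 and mm10 appear in the submitters' processing notes, whereas the matrix headers give Cell Ranger 4.0.0. Intron counting and the barcode filter are not given in the sources used here.

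Nuclei with under 300 genes or over 5% mitochondrial UMIs were removed, as were the barcodes with the highest Scrublet doublet scores, at 0.8% per 1000 barcodes. The rest were clustered together with scanpy 1.11.5 (counts scaled to 10000, log values, 2000 variable genes without the members and listed genes, 30 components, 20 neighbours, Leiden resolution 0.8) and named when at least 3 markers were raised at least 2-fold. Naming thresholds were set after seeing the data. Clusters with over 40% of another type's markers, under 50 nuclei or low depth stayed unnamed.

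UMIs were summed per class and library; ratios and intervals came from these sums, and their calculation was tested on simulated data. No test across libraries was possible. All members are named. From each pathway list up to 4 genes with the largest log2 ratio of Rbm20_homo to WT in cardiomyocyte-like sums, among those with at least 100 UMIs, could be named, and up to 2 in fibroblast-like and endothelial-like sums. Members and lists were chosen with earlier results of these data known. Alternatives covered scaling, thinning, doublets, filters, clustering and the fold. One, which kept only the cluster holding most of a library's nuclei of a class, was chosen after seeing the data. The genes most like Cdkn2c are not reported here.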

Additional observations from a re-analysis of the deposited data

Results flagged for a closer look

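Some members had called ratios in opposite directions in different cell classes of the same comparison. The difference between classes was not tested, since each class gave 1 value per library. For the corrected library against Rbm20_homo, the log2 ratio of Ccnd2 was -1.10 in ventricular cardiomyocyte-like nuclei, 1.15 in lymphatic endothelial-like and 0.72 in pericyte-like nuclei. Against WT, Ccnd2 in the corrected library was -0.66 in ventricular cardiomyocyte-like and -0.60 in pericyte-like nuclei, but 1.21 in lymphatic endothelial-like nuclei. Ccnd1 against WT was 1.18 in macrophage-like and -0.65 in endothelial-like nuclei of the corrected library.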

How the results depend on the processing

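Over the 7 classes, 47 member ratios were called, 11 of them in ventricular cardiomyocyte-like nuclei. Of these, 45 and 10 remained called with TMM factors and likewise with median-of-ratios factors, 46 and 11 without Malat1, 44 and 11 without doublet removal, 46 and 11 with at least 600 genes per nucleus, and 47 and 11 at resolution 1.6. Thinning to 1000 UMIs left 26 and 3, and a 2-fold threshold 22 and 4. In cardiomyocyte-like nuclei Ccnd2 in Rbm20_homo against WT, not called in the main setting, was called higher with TMM factors, median-of-ratios factors or without Malat1. Counts in cardiomyocyte-like nuclei that changed by more than 1.5-fold, or to or from 0, moved as follows. Lower members in Rbm20_het against WT went from 2 to 1 with median-of-ratios factors, TMM factors, thinning and the largest cluster alone. Thinning gave 1 higher and 0 lower in Rbm20_homo against WT, 1 lower in the corrected library against Rbm20_homo, and 0 lower against WT. Without a minimum of UMIs, 1 member was higher in the corrected library against WT, where the main count was 0. At 2-fold, Rbm20_homo against WT had 1 higher and 0 lower, Rbm20_het against WT 0 higher and 0 lower, and the corrected library against WT 1 lower. Cdkn1a in cardiomyocyte-like nuclei, corrected library against Rbm20_homo, turned from -0.73 to 0.61 (log2) when thinned, on 11 and 7 UMIs. Leaving out cardiomyocyte clusters with over 90% of nuclei from 1 library removed none, as the largest share was 86.6%. No paired analysis was possible because the labels give no replicate numbers and each genotype has 1 library, so no replicate could be left out either.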

Other observations

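Lymphocyte nuclei, too few for the comparisons, carried much Ccnd3 and no Cdkn1a UMI. T cell-like nuclei read 1343 CPM of Ccnd3 in Rbm20_homo and 1206 CPM in the corrected library, and B cell-like nuclei 1310 CPM in Rbm20_het and 1301 CPM in the corrected library, the libraries with at least 50 such nuclei. Those values are close to the macrophage-like levels of Rbm20_het and Rbm20_homo. Cdkn1a had 0 UMIs in all 4 sums, which with 3 counts allows up to 16.2, 14.3, 16.9 and 12.8 CPM. Ccnd2 was 162 CPM and 148 CPM in T cell-like but 62.1 CPM and 64.0 CPM in B cell-like nuclei.

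Cycling-like nuclei, in which the Cdk inhibitor Cdkn2c was most frequent, read 117 CPM of Ccnd3 in WT (95% interval 82.2 to 162) and 269.8 CPM in Rbm20_homo (232 to 312). Cdkn1a read 16.3 CPM and 29.6 CPM there, from 5 and 20 UMIs, and their intervals overlapped.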
